A study of Mus musculus with 23 samples.

Results

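Adult basal cells were set against adult mature luminal cells of the mouse mammary gland. The comparison takes the libraries titled as normal adult basal cells and those titled as normal adult mature luminal cells, 4 of the 23 RNA-seq libraries of the series, with 2 in each group. All 4 came from wild-type mammary glands of adult C57BL6J mice and were sorted by flow cytometry from freshly dissected tissue, with no treatment in the labels. Neither the age in weeks nor the sort markers are stated in the labels. The design text calls the libraries biological replicates, but no label ties a library to an animal. Every p-value below therefore rests on the spread between libraries of a group, pooled over all groups in the fit. That spread may be partly technical. The other normal libraries, fetal mammary stem cells of embryonic day 18 and adult luminal progenitors, entered the fit to estimate the spread. Tumours grown in syngeneic mice from transplanted PY230 cells, a mammary tumour line, gave a second basal population (basal SOX10 high) and a luminal one (luminal SOX10 high), with 2 libraries each, and are used in the last comparison.

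The mammary duct has an outer layer of basal cells and an inner layer of luminal cells. Basal cells rest on the basement membrane, contract in response to oxytocin to eject milk, and express smooth muscle proteins together with the keratins of stratified epithelia. Mature luminal cells line the lumen, carry receptors for oestrogen, progesterone and prolactin, and pass hormone signals on to neighbouring cells as secreted factors, of which amphiregulin is the best known.

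Values are RPKM, read counts scaled to gene length and to the mapped reads of the library, as deposited. The log2 differences are those of log2(RPKM + 1), basal minus mature luminal, given with their standard error, and understate the change of genes near 0. The adjusted p-values are limma's with Benjamini-Hochberg adjustment over all genes tested, and "rose" and "fell" are used of basal cells relative to mature luminal cells where that p was under 0.05. The tables hold no read counts, so depth is unknown and the spread between libraries is the only measure of error. A value at or near 0 does not show that a gene was not expressed: Gapdh, a glycolytic enzyme of every cell, is listed at 1.56 and 0.81 RPKM in basal cells, against 0.309 and 0.473 RPKM in mature luminal cells, and has many near-identical copies. At least 1 RPKM was reached by 10946 and 10545 genes in the basal libraries, and by 10056 and 10175 in the mature luminal libraries. The nuclear RNA Malat1 took 3.5% and 5.88% of the summed RPKM in basal cells, against 6.35% and 11.5% in mature luminal cells. The basal replicates were less alike than the mature luminal ones: 2442 genes differed by more than 1 on the log2 scale between the basal libraries, and 297 between the mature luminal libraries. The pooled spread of the fit does not reflect this inequality.

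Of 12553 genes tested, 3611 rose in basal cells (28.8%), 2488 fell (19.8%), 48.6% passed in either direction, and 6454 did not pass the threshold. Both basal libraries lay above both mature luminal libraries for 40% of the genes and below them for 31.2%. A log2 difference of at least 3 was seen for 414 of the genes that rose and 60 of those that fell. The median log2 difference of all tested genes was 0.12. The balance between rises and falls depended on how the libraries were scaled. Rises were 59.2% of the calls as deposited, 67.1% when each library was rescaled to the same sum (4043 higher, 1978 lower), 46.7% after quantile normalization (2964 higher, 3389 lower) and 49.9% with median-of-ratios factors (3146 higher, 3154 lower). The median of all genes was then 0.28 for equal sums, -0.074 for quantile normalization and -0.00934 for median-of-ratios factors. No gene called here was called in the opposite direction under any of these scalings. Leaving out a library left 1 library in its group, which then added nothing to the estimate of the spread. Calls gained or lost without a library, given below, therefore also reflect a changed error.

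**Figure D1:**
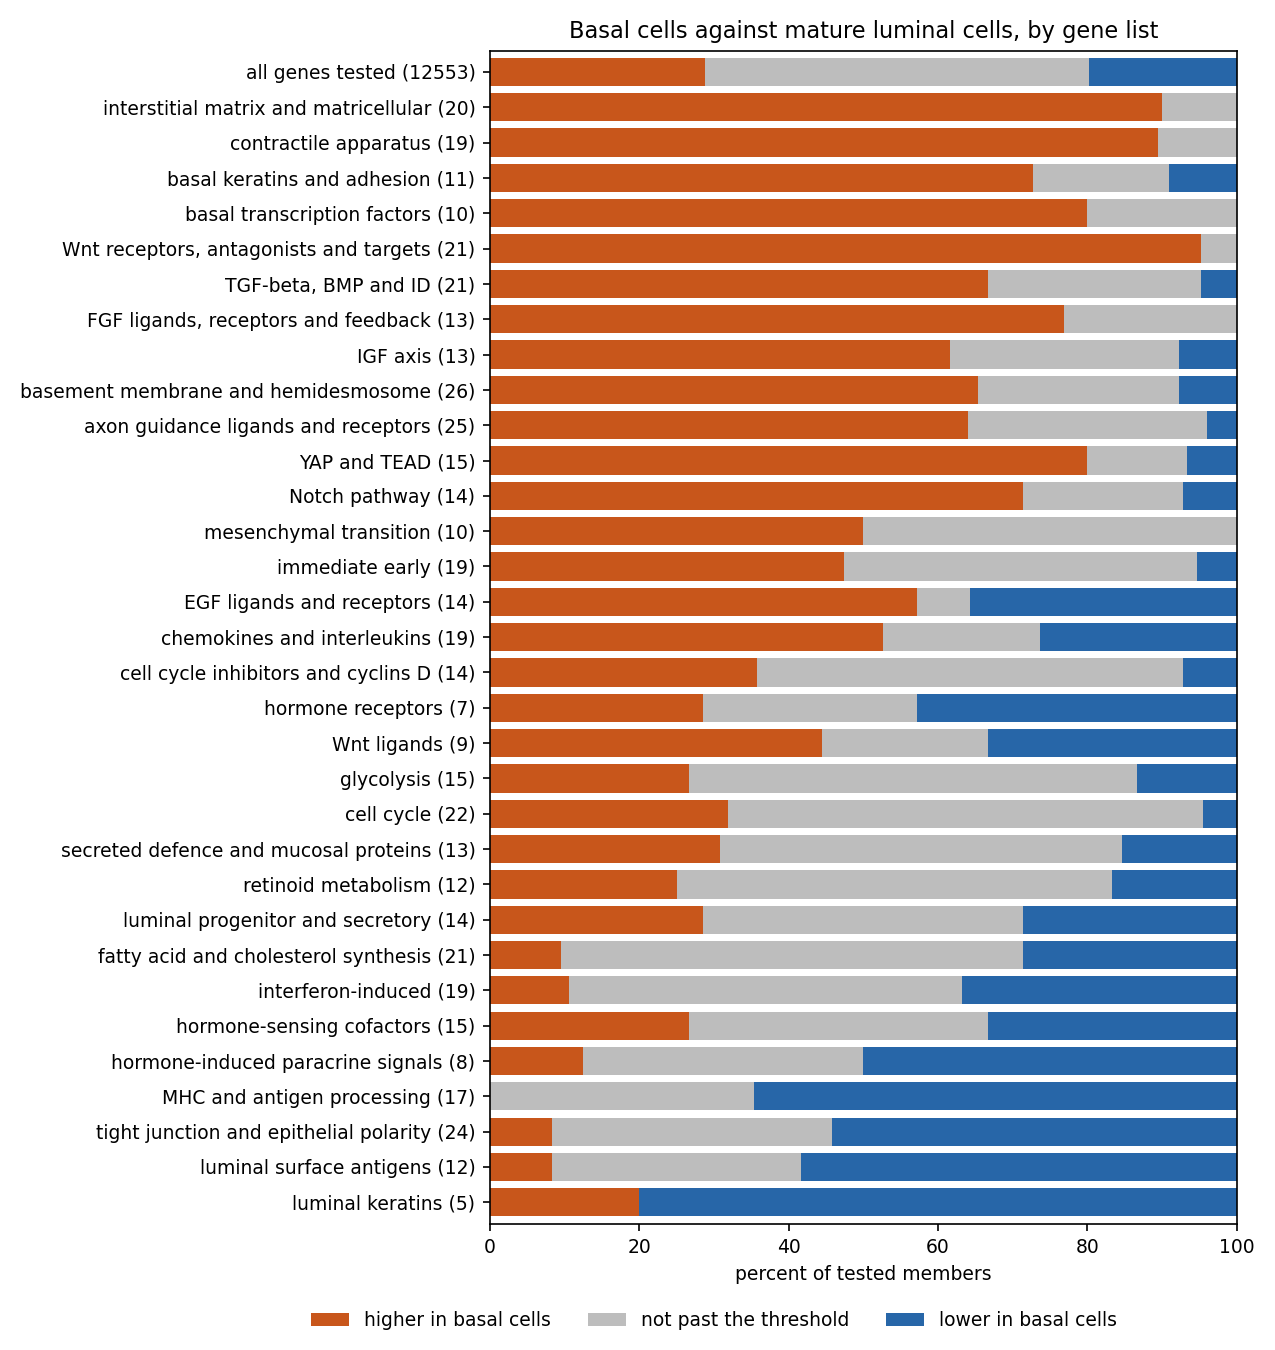
Percent of the tested members of each gene list with at least 5 tested members that were higher in basal cells (left, orange), did not pass the threshold (grey) or were lower in basal cells (right, blue), with the number tested in parentheses and the lists ordered by median log2 difference; the top bar shows all genes tested. The interstitial matrix list (18 of 20 members higher) and the contractile list (17 of 19) lie next to the all-gene bar, and luminal keratins (4 of 5 lower) at the bottom.

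The labels were checked first on genes that define the populations. Krt14, a keratin of basal cells, stood at 1213 and 532 RPKM in basal cells, against 3.29 and 2.26 RPKM in mature luminal cells. Krt5, its keratin partner, stood at 65.9 and 29.97 RPKM in basal cells, against 0.0604 and 0.0978 RPKM in mature luminal cells. Trp63, the transcription factor of stratified and basal epithelium, stood at 34.1 and 60.8 RPKM in basal cells, against 0.2 and 0.0518 RPKM in mature luminal cells. All 3 genes were high in both basal libraries and near 0 in both mature luminal libraries, with no overlap. Their log2 differences were 7.75 ± 0.45 (SE) for Krt14 (adjusted p = 5.33e-05), 5.40 ± 0.38 for Krt5 (adjusted p = 9.56e-05) and 5.37 ± 0.32 for Trp63 (adjusted p = 5.47e-05).

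The luminal keratins went the other way. Krt8 was at 762 and 437 RPKM in basal cells, against 4379 and 3076 RPKM in mature luminal cells. Krt18, which pairs with Krt8 in simple epithelia, was at 879 and 356 RPKM in basal cells, against 6083 and 3765 RPKM in mature luminal cells. The groups did not overlap, and the log2 differences were -2.67 ± 0.33 for Krt8 (adjusted p = 0.000854) and -3.09 ± 0.47 for Krt18 (adjusted p = 0.00191). The 8 mature luminal markers examined (Krt8, Krt18, Krt19, Esr1, Pgr, Prlr, Foxa1 and Cited1) reached 13.4% to 31% of their mean mature luminal level in basal replicate 1 and 3.24% to 26.1% in basal replicate 2. In the opposite direction, the 7 basal markers (Krt5, Krt14, Trp63, Acta2, Myh11, Snai2 and Oxtr) reached 0% to 4.66% of their mean basal level in the mature luminal libraries. The highest of these was Acta2, at 4.66% and 3.59%. The luminal progenitor markers Kit, Elf5, Aldh1a3, Csn3 and Cd14 were at 0.413% to 6.1% of their progenitor level in basal cells and at 1.24% to 17% in mature luminal cells. These levels stand beside every luminal gene described below, and their part in those differences was not tested. In libraries of sorted cell pools, fewer cells of a type and less RNA per cell cannot be told apart.

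**Figure D2:**
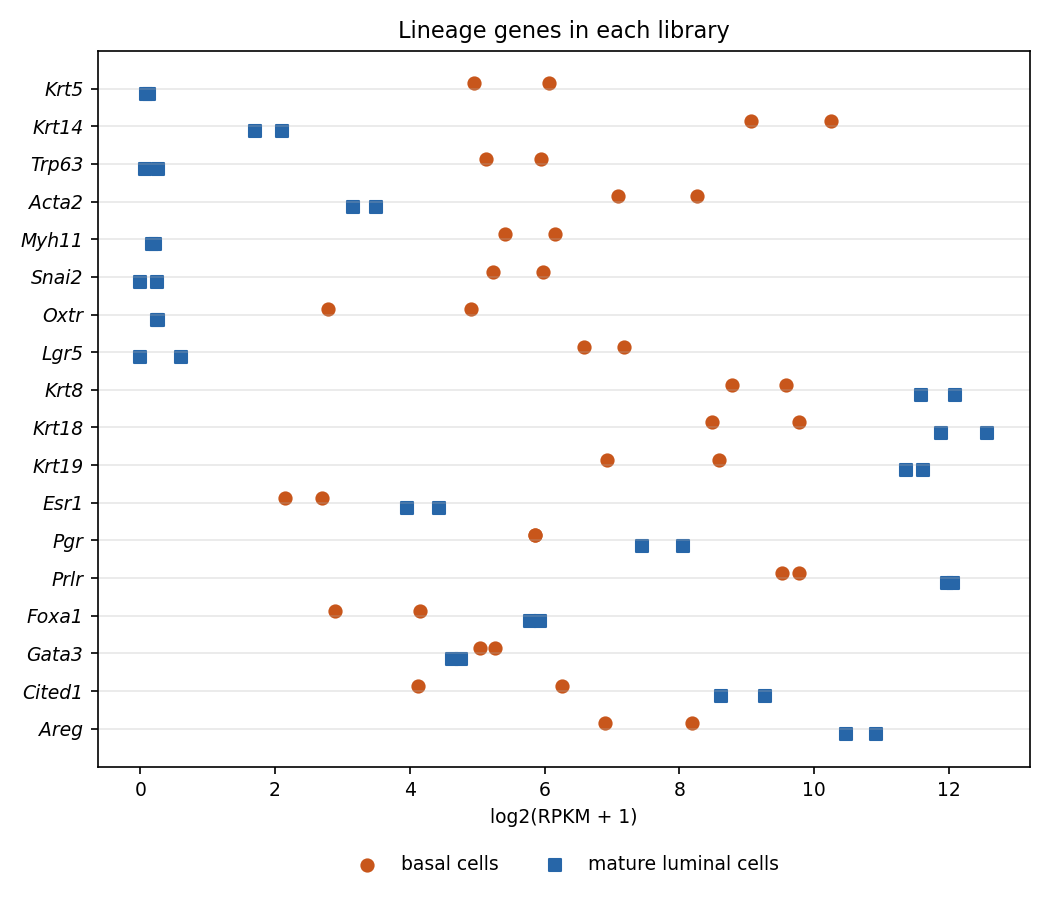
Level of 18 lineage genes in each library, as log2(RPKM + 1) on the horizontal axis; circles are the 2 basal libraries and squares the 2 mature luminal libraries. The 8 genes from Krt5 to Lgr5 are higher in both basal libraries, 9 of the other 10 are lower in both, and Gata3 is the exception with slightly higher values in basal cells.

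**Figure D3:**
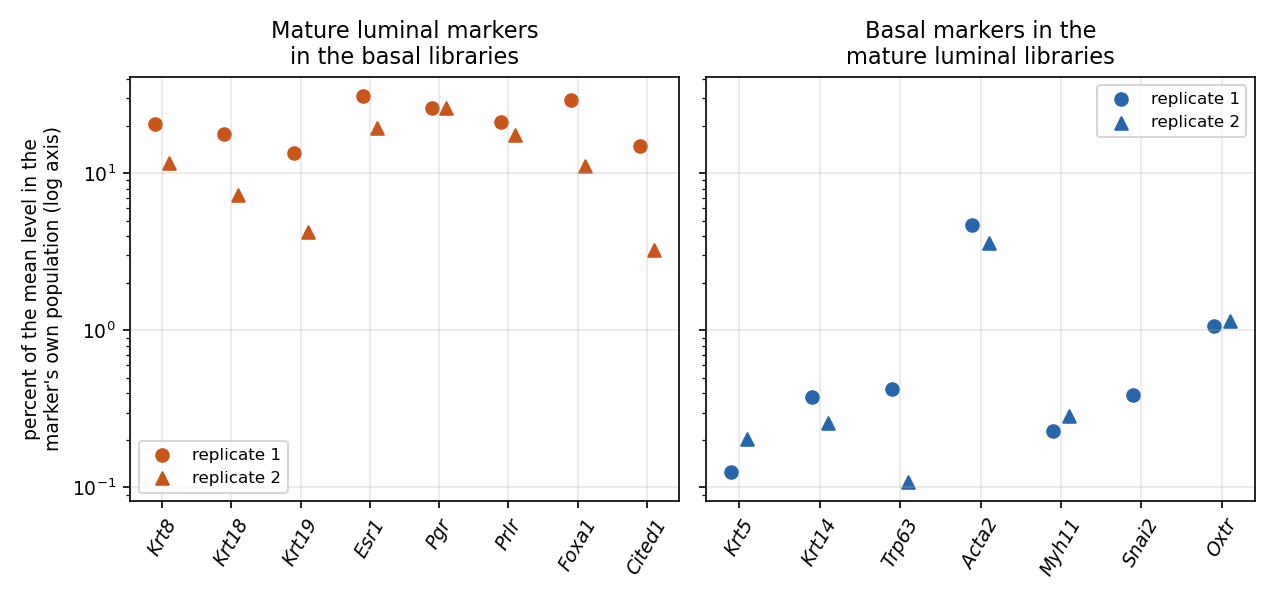
Left, the 8 mature luminal markers in the basal libraries, and right, the 7 basal markers in the mature luminal libraries, each as a percent of the mean RPKM in the marker's own population on a log axis; Snai2 in mature luminal replicate 2 is listed at 0 and is not drawn. Points lie between 3.24% and 31% on the left and at or below 4.66% on the right.

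Keratins and adhesion genes of the basal layer were mostly higher in basal cells, with 8 of 11 tested members higher and 1 lower. Their median log2 difference was 3.33, and the all-gene shares were 28.8% higher and 19.8% lower. Krt17, a keratin of basal and stressed epithelium, had the largest rise of any gene tested. It stood at 873 and 425 RPKM in basal cells, against 0.203 and 0.188 RPKM in mature luminal cells, a log2 difference of 8.996 ± 0.33 (adjusted p = 1.89e-05). Krt15 (3.33), Krt16 (1.76), the P-cadherin gene Cdh3 (3.50), the desmosomal cadherin gene Dsc3 (1.31) and Col17a1 (4.53), a collagen of hemidesmosomes, rose as well. Krt6a ran against the list. It was at 101 and 46.8 RPKM in basal cells, against 428 and 442 RPKM in mature luminal cells, a log2 difference of -2.64 ± 0.41 (adjusted p = 0.00199). The basal libraries held Krt6a at less than every mature luminal value, although its usual partner Krt16 was higher in both basal libraries.

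Among transcription factors of basal cells, 8 of 10 tested members rose and none fell (median 2.95), against 28.8% and 19.8% of all genes. Snai2, known as Slug and a regulator of the basal state, was at 62.2 and 36.6 RPKM in basal cells, against 0.192 and 0 RPKM in mature luminal cells (5.48 ± 0.29, adjusted p = 4.6e-05). Id4, an inhibitor of helix-loop-helix factors, was at 34.4 and 65.2 RPKM in basal cells, against 0.114 and 0.197 RPKM in mature luminal cells (5.39 ± 0.31, adjusted p = 5.33e-05). Neither gene overlapped between the groups. Egr2 (4.60), Tcf7l1 (3.34), a repressor of Wnt target genes, Mef2c (2.56), Nfib (1.95) and Srf (1.85), the serum response factor that drives smooth muscle genes, also rose. The Srf cofactor genes Mkl1 and Mkl2 did not pass the threshold, at 3.15 and 1.82 RPKM in basal cells against 2.28 and 1.49 RPKM in mature luminal cells for Mkl1, and at 50.4 and 66.9 against 38.1 and 32.8 RPKM for Mkl2. The related cofactor gene Myocd was not tested, with 0.049 and 0 RPKM in basal cells and 0 in both mature luminal libraries.

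The contractile apparatus was higher in basal cells almost throughout: 17 of 19 tested members rose, none fell, and the median log2 difference was 3.93. The all-gene shares were 28.8% and 19.8%. Mylk, the kinase that activates smooth muscle myosin, was at 155 and 83.2 RPKM in basal cells, against 0.24 and 0.288 RPKM in mature luminal cells (6.50 ± 0.32, adjusted p = 3.79e-05). Tagln, the actin-binding protein transgelin, was at 729 and 128 RPKM in basal cells, against 2.9 and 2.45 RPKM in mature luminal cells (6.39 ± 0.69, adjusted p = 0.000494). Both genes were far above the mature luminal range in each basal library, but basal replicate 1 was the higher. The same replicate was the higher for the smooth muscle actin gene Acta2 (306 and 135 RPKM), the calponin gene Cnn1 (131 and 26.2 RPKM) and the oxytocin receptor gene Oxtr (29.1 and 5.89 RPKM). In mature luminal cells, these genes stood at 10.3 and 7.91 RPKM for Acta2, 0 and 0.062 RPKM for Cnn1, and 0.185 and 0.201 RPKM for Oxtr. All 3 passed the threshold, with log2 differences of 4.35 ± 0.38, 5.86 ± 0.64 and 3.59 ± 0.60. Without basal replicate 1, 1 member of the list was called lower.

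Cald1, the caldesmon gene, was close to even between the basal replicates. It was at 135 and 137 RPKM in basal cells, against 1.19 and 1.19 RPKM in mature luminal cells (5.97 ± 0.18, adjusted p = 1.89e-05). Tpm2, a muscle tropomyosin, again higher in basal replicate 1, was at 251 and 176 RPKM in basal cells, against 2.08 and 2.17 RPKM in mature luminal cells (6.08 ± 0.23, adjusted p = 1.89e-05). Its relative Tpm1 did not pass the threshold, at 294 and 234 RPKM in basal cells against 209 and 199 RPKM in mature luminal cells. The non-muscle myosin light chain gene Myl6 did not pass it either, at 543 and 320 RPKM in basal cells against 521 and 510 RPKM in mature luminal cells.

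Smooth muscle genes are known targets of the serum response factor, which binds the CArG box, and promoters of the contractile list were searched for that motif on both strands. RefSeq promoters (GRCm38.p6, 250 bases before to 50 after the start) were found for 17 of the 20 list members, 20 promoters in all. None was found for Tagln, Myh11 or Actg2, so these genes were not searched. The expression tables were made on mm9, so these positions describe the RefSeq build alone. Only exact matches to CCWWWWWWGG, where W is A or T, were counted. Variant boxes, and boxes outside these bases, would be missed. A CArG box lay in 3 members, Myl9, Cnn2 and Myl6, in 1 promoter each, and in 535 of all 32851 promoters (1.63%). Promoters of Myl9 and Cnn2, the holders of the motif that rose, are shown 5′ to 3′ with the motif in capitals. In Myl9 (chr2:156775214-156775513, plus strand) the motif starts at position -161 from the start site, and in Cnn2 (chr10:79988350-79988649, plus strand) at -56.
Myl9: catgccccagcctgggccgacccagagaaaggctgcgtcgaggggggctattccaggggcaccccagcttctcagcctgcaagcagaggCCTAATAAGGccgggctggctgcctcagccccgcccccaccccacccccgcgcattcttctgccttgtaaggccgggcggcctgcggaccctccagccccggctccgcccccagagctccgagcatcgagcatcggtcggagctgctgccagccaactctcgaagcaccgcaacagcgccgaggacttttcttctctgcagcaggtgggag
Cnn2: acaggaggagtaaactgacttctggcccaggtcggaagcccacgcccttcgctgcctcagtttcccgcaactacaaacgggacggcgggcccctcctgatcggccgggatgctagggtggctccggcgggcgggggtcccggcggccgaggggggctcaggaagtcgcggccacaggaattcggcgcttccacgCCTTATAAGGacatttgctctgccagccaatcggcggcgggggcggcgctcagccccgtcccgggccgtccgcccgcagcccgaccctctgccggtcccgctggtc
Myl9, a smooth muscle myosin light chain, was at 30.9 and 9.9 RPKM in basal cells, against 0.208 and 0.247 RPKM in mature luminal cells (3.93 ± 0.47, adjusted p = 0.000754). Cnn2, a calponin also found outside muscle, differed far less, at 31.4 and 29.7 RPKM in basal cells against 21.3 and 12.6 RPKM in mature luminal cells (0.86 ± 0.26, adjusted p = 0.0305). The match describes these letters only.

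Basement membrane and hemidesmosome genes were mostly higher in basal cells (17 of 26 tested members higher, 2 lower, median 1.60). The all-gene shares were 28.8% and 19.8%. When the fit held only the 4 libraries compared, 13 members were called higher and none lower. The collagen IV chain gene Col4a1 was at 57.4 and 58.9 RPKM in basal cells, against 0.551 and 0.946 RPKM in mature luminal cells (5.09 ± 0.23, adjusted p = 3.06e-05). The laminin chain gene Lamb1 was at 27.2 and 43.4 RPKM in basal cells, against 0.122 and 0.322 RPKM in mature luminal cells (4.86 ± 0.28, adjusted p = 5.06e-05). Both genes were below 1 RPKM in mature luminal cells and well above it in each basal library. Col4a2 (4.81) and Lama3 (4.59), the alpha chain of laminin-332, also rose, and so did the integrin genes Itga6 (1.49), Itga3 (1.66), Itgb1 (1.26) and Itga9 (2.16). Lama5, an alpha chain of laminin-511, fell, at 359 and 274 RPKM in basal cells against 515 and 637 RPKM in mature luminal cells (-0.87 ± 0.20, adjusted p = 0.011). The cytolinker gene Plec fell by 0.84 ± 0.28 (adjusted p = 0.0399). Without mature luminal replicate 2 neither fall passed the threshold (Lama5 -0.71, adjusted p = 0.065; Plec -0.93, adjusted p = 0.0955), and Plec also failed without mature luminal replicate 1 (-0.75, adjusted p = 0.166) or basal replicate 2 (-0.42, adjusted p = 0.106). Itgb4, Itga2, Dst and Cd151 were among the 7 members that did not pass.

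The interstitial and matricellular list had the highest median of all the lists (4.43), with 18 of 20 tested members higher and none lower. The all-gene shares were 28.8% and 19.8%. Postn, periostin, was at 467 and 590 RPKM in basal cells, against 0.26 and 1.66 RPKM in mature luminal cells (8.17 ± 0.63, adjusted p = 0.000133). Sparc, a collagen-binding glycoprotein, was at 232 and 201 RPKM in basal cells, against 0.706 and 2.45 RPKM in mature luminal cells (6.48 ± 0.54, adjusted p = 0.000176). Thbs1, thrombospondin, was the most abundant member, at 1378 and 1474 RPKM in basal cells against 21.8 and 49.4 RPKM in mature luminal cells (5.39 ± 0.34). Each was above every mature luminal value in both basal libraries. The matrix metalloproteinase gene Mmp2 (5.56), its inhibitor Timp3 (5.16), the protease gene Adamts1 (5.39) and the collagen chaperone gene Serpinh1 (4.70) rose with them. Tnc, tenascin, was at 5.29 and 4.04 RPKM in basal cells and is listed at 0 in both mature luminal libraries. Fn1, fibronectin, did not pass the threshold, at 0.984 and 5.92 RPKM in basal cells against 0.439 and 1.15 RPKM in mature luminal cells, and neither did Thbs2.

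Markers of other cells that make matrix were summed in the same libraries. The 10 fibroblast markers summed to 60.1 and 67.1 RPKM in basal cells, against 43.5 and 19.8 RPKM in mature luminal cells, and 4 of the 10 reached 1 RPKM in both basal libraries, against 3 in both mature luminal libraries. The largest share of that sum in basal cells was Dcn, decorin, at 49.7 and 50.0 RPKM in basal cells against 23.3 and 4.13 RPKM in mature luminal cells (2.19 ± 0.62, adjusted p = 0.0224), a call lost without basal replicate 1 (2.19, adjusted p = 0.0512) or basal replicate 2 (2.18, adjusted p = 0.0578). The fibroblast marker Col6a3, a collagen VI chain, fell, at 2.97 and 3.37 RPKM in basal cells against 15.2 and 10.3 RPKM in mature luminal cells (-1.70 ± 0.26, adjusted p = 0.00188). The interstitial collagen gene Col1a1 stood at 0.937 and 0.399 RPKM in basal cells, against 0.0553 and 0.0845 RPKM in mature luminal cells, and the fibroblast marker Pi16 was at 0 in all 4 libraries. The 8 pericyte markers summed to 74.1 and 87.8 RPKM in basal cells, against 0.718 and 1.58 RPKM in mature luminal cells, and 2 of the 8 reached 1 RPKM in both basal libraries against 0 in mature luminal cells. Mcam made up most of it, at 68.2 and 77.2 RPKM in basal cells against 0.353 and 0.618 RPKM in mature luminal cells (5.64 ± 0.22). Of the other pericyte markers, Kcnj8 and Cox4i2 were at 0 in all 4 libraries and Rgs5 was at 1.17 and 2.25 RPKM in basal cells against 0.314 and 0.732 RPKM in mature luminal cells. The 9 endothelial markers summed to 24.6 and 64.4 RPKM in basal cells, against 46.7 and 74.3 RPKM in mature luminal cells, so the groups overlapped, and 4 of the 9 reached 1 RPKM in both basal libraries against 1 in both mature luminal libraries. Vwf, von Willebrand factor, fell without overlap, at 15.8 and 13.8 RPKM in basal cells against 43.7 and 56.9 RPKM in mature luminal cells (-1.69 ± 0.29, adjusted p = 0.00332). Emcn, endomucin, was uneven within groups, at 0.462 and 25.1 RPKM in basal cells against 0.734 and 7.03 RPKM in mature luminal cells. Their part in the matrix differences was not tested.

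Luminal keratins fell in 4 of 5 tested members (median -3.09), against 19.8% of all genes. Krt7 was at 158 and 62.1 RPKM in basal cells, against 1997 and 1390 RPKM in mature luminal cells (-4.06 ± 0.52, adjusted p = 0.00101). Krt19 was at 386 and 121 RPKM in basal cells, against 3126 and 2643 RPKM in mature luminal cells (-3.73 ± 0.49, adjusted p = 0.00112). The lower basal value of both genes was in replicate 2. The exception was Krt23, at 21.5 and 15.6 RPKM in basal cells against 0.29 and 0.406 RPKM in mature luminal cells (3.84 ± 0.32, adjusted p = 0.000183).

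Tight junction and polarity genes fell in 13 of 24 tested members and rose in 2 (median -1.33), against 19.8% and 28.8% of all genes. When the fit held only the 4 libraries compared, 8 members were called lower and 1 higher. Cldn4, a barrier claudin, was at 281 and 94.3 RPKM in basal cells, against 2209 and 1472 RPKM in mature luminal cells (-3.46 ± 0.48, adjusted p = 0.00129). Cldn7 (-3.41), Cldn3 (-3.35), Ocln (-2.39), which encodes occludin, and Epcam (-2.61), an adhesion molecule used to sort luminal cells, fell as well. Rab25, a trafficking GTPase of polarized epithelium, fell by 2.90 ± 0.56, and by 1.90 without basal replicate 2. The claudin gene Cldn1 rose instead, at 18.6 and 67.5 RPKM in basal cells against 4.5 and 11.7 RPKM in mature luminal cells (2.13 ± 0.59, adjusted p = 0.0208). That call was lost without basal replicate 2 (1.23, adjusted p = 0.0566) or mature luminal replicate 1 (1.53, adjusted p = 0.134), and that of the scaffold gene Tjp1 (0.77 ± 0.20, adjusted p = 0.0168) without mature luminal replicate 1 (adjusted p = 0.0738) or replicate 2 (adjusted p = 0.0707). Cdh1, E-cadherin, did not pass the threshold, at 152 and 232 RPKM in basal cells against 211 and 298 RPKM in mature luminal cells, and the splicing regulator Esrp1 was at 25.4 and 31.1 RPKM in basal cells against 25.4 and 31.1 RPKM in mature luminal cells.

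Surface antigens of luminal cells fell in 7 of 12 tested members and rose in 1 (median -1.78), against 19.8% and 28.8% of all genes. Cd24a, a glycoprotein used to separate mammary layers, was at 969.9 and 472 RPKM in basal cells, against 4737 and 4010 RPKM in mature luminal cells (-2.69 ± 0.33, adjusted p = 0.000842). Prom1, which marks the hormone-sensing luminal cells, was at 79.3 and 84.0 RPKM in basal cells, against 278 and 498 RPKM in mature luminal cells (-2.18 ± 0.31, adjusted p = 0.00145). The basal values of Prom1 were nearly equal, and both were below the mature luminal range. Ly6a, known as Sca-1, Ly6d and Ly6e fell by 3.22, 3.64 and 2.73, although members of this family are similar enough in sequence for reads to be shared. Itgb3, a marker of luminal progenitors, was at 2.19 and 22.4 RPKM in basal cells, against 0.442 and 0.171 RPKM in mature luminal cells (2.73 ± 0.80, adjusted p = 0.0251). Its call was lost without mature luminal replicate 1 (adjusted p = 0.0913) or replicate 2 (adjusted p = 0.108).

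Of 7 hormone receptors tested, 3 fell and 2 rose (median 0.68), against 19.8% and 28.8% of all genes. The falls were the receptors for prolactin, progesterone and oestrogen. Prlr, the prolactin receptor, was at 879.6 and 732 RPKM in basal cells, against 4013 and 4291 RPKM in mature luminal cells (-2.37 ± 0.22, adjusted p = 0.000247). Pgr, the progesterone receptor, was at 57.0 and 57.0 RPKM in basal cells, against 173 and 264 RPKM in mature luminal cells (-1.89 ± 0.31, adjusted p = 0.0026). Esr1, the oestrogen receptor, was at 5.46 and 3.42 RPKM in basal cells, against 20.7 and 14.6 RPKM in mature luminal cells (-1.78 ± 0.33, adjusted p = 0.00414). None of the 3 overlapped between groups, and each basal library held between 17.6% and 31% of the mature luminal mean. Vdr, the vitamin D receptor, was at 181 and 182 RPKM in basal cells, against 13.1 and 15.9 RPKM in mature luminal cells (3.56 ± 0.36, adjusted p = 0.00038). Nr3c1, the glucocorticoid receptor, was at 74.1 and 100.1 RPKM in basal cells, against 6.74 and 9.56 RPKM in mature luminal cells (3.27 ± 0.25, adjusted p = 0.000139). The growth hormone receptor gene Ghr was among the members that did not pass, at 75.4 and 32.4 RPKM in basal cells against 28.0 and 33.2 RPKM in mature luminal cells.

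Of the factors that work with the oestrogen receptor, 4 of 15 tested members were higher and 5 lower (median -0.43), against 28.8% and 19.8% of all genes. When the fit held only the 4 libraries compared, 4 were called higher and 2 lower. Foxa1, which opens chromatin for the receptor, was at 16.7 and 6.39 RPKM in basal cells, against 54.1 and 60.3 RPKM in mature luminal cells (-2.35 ± 0.39, adjusted p = 0.00264). Cited1, a coactivator of the receptor, was at 75.5 and 16.4 RPKM in basal cells, against 618 and 392 RPKM in mature luminal cells (-3.76 ± 0.61, adjusted p = 0.00245). Spdef (-2.04), Xbp1 (-0.99) and Myb (-0.90) fell too. The rises were Tfap2c (4.85), Fosl2 (3.52), Bcl11b (2.22) and Runx1 (1.28). Tfap2c, an AP-2 factor often placed with the luminal programme, stood at 61.0 and 102 RPKM in basal cells, against 1.48 and 2.08 RPKM in mature luminal cells. Gata3, the regulator of luminal fate, did not pass the threshold, with 32.1 and 37.6 RPKM in basal cells and 26.0 and 23.7 RPKM in mature luminal cells (0.47 ± 0.19, adjusted p = 0.0749). Its basal values lay just above the mature luminal ones, and it was called when libraries were rescaled to the same sum (0.66, adjusted p = 0.0385). The difference of Gata3 was 0.58 without basal replicate 1. Without basal replicate 1 the members called higher became 7, and without mature luminal replicate 1 those called lower became 2.

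Of the paracrine signals that hormones induce in luminal cells, 4 of 8 tested members fell and 1 rose (median -0.52). Among all genes 19.8% fell and 28.8% rose. When the fit held only the 4 libraries compared, 1 member was called lower and 1 higher. Areg, amphiregulin, was at 290.2 and 118 RPKM in basal cells, against 1940 and 1414 RPKM in mature luminal cells (-3.15 ± 0.42, adjusted p = 0.00113). Wnt4, a progesterone target, was at 7.71 and 5.03 RPKM in basal cells, against 17.1 and 13.3 RPKM in mature luminal cells (-1.15 ± 0.28, adjusted p = 0.0119), a call lost without mature luminal replicate 1 (-0.98, adjusted p = 0.0843). Calca, the calcitonin gene, was at 0.446 and 0 RPKM in basal cells, against 3.26 and 13.2 RPKM in mature luminal cells (-2.70 ± 0.66, adjusted p = 0.0133), a call lost without mature luminal replicate 2 (-1.83, adjusted p = 0.0731). In each of these the basal libraries were below the mature luminal ones. The members called lower became 2 without mature luminal replicate 1 and 2 without replicate 2, and without basal replicate 1 those called higher became 2. Tnfsf11, which encodes RANKL, was below 0.5 RPKM in all 4 libraries and was not tested. The chemokine gene Cxcl12 was the rise, at 147 and 114 RPKM in basal cells against 6.73 and 5.41 RPKM in mature luminal cells (4.21 ± 0.21, adjusted p = 4.21e-05).

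Ligands and receptors of the EGF family were divided between the layers. Egfr itself, the receptor for amphiregulin, was at 15.0 and 32.8 RPKM in basal cells, against 0.166 and 0.649 RPKM in mature luminal cells (4.07 ± 0.38, adjusted p = 0.000265). Of the ligands, Areg, Btc (betacellulin, -2.82), Epgn (epigen, -2.70) and Nrg4 (-1.66) fell in basal cells. Nrg1 was at 45.1 and 68.4 RPKM in basal cells, against 0 and 0.211 RPKM in mature luminal cells (5.68 ± 0.28, adjusted p = 3.79e-05). Ereg, epiregulin, was at 24.2 and 26.6 RPKM in basal cells, against 0.0859 and 0.118 RPKM in mature luminal cells (4.58 ± 0.26, adjusted p = 4.9e-05). Hbegf (3.33) and Tgfa (1.35) rose too. Erbb3, a receptor for neuregulins, was higher in the mature luminal libraries, with 0.731 and 0.79 RPKM in basal cells and 3.43 and 3.01 RPKM in mature luminal cells (-1.26 ± 0.22, adjusted p = 0.00333). Erbb2 did not differ beyond its spread, at 2.97 and 3.47 RPKM in basal cells against 2.7 and 3.61 RPKM in mature luminal cells. The receptor inhibitors Errfi1 (2.33) and Lrig1 (2.23) rose. In all, 8 of 14 tested members were higher and 5 lower (median 1.09), against 28.8% and 19.8% of all genes.

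**Figure D4:**
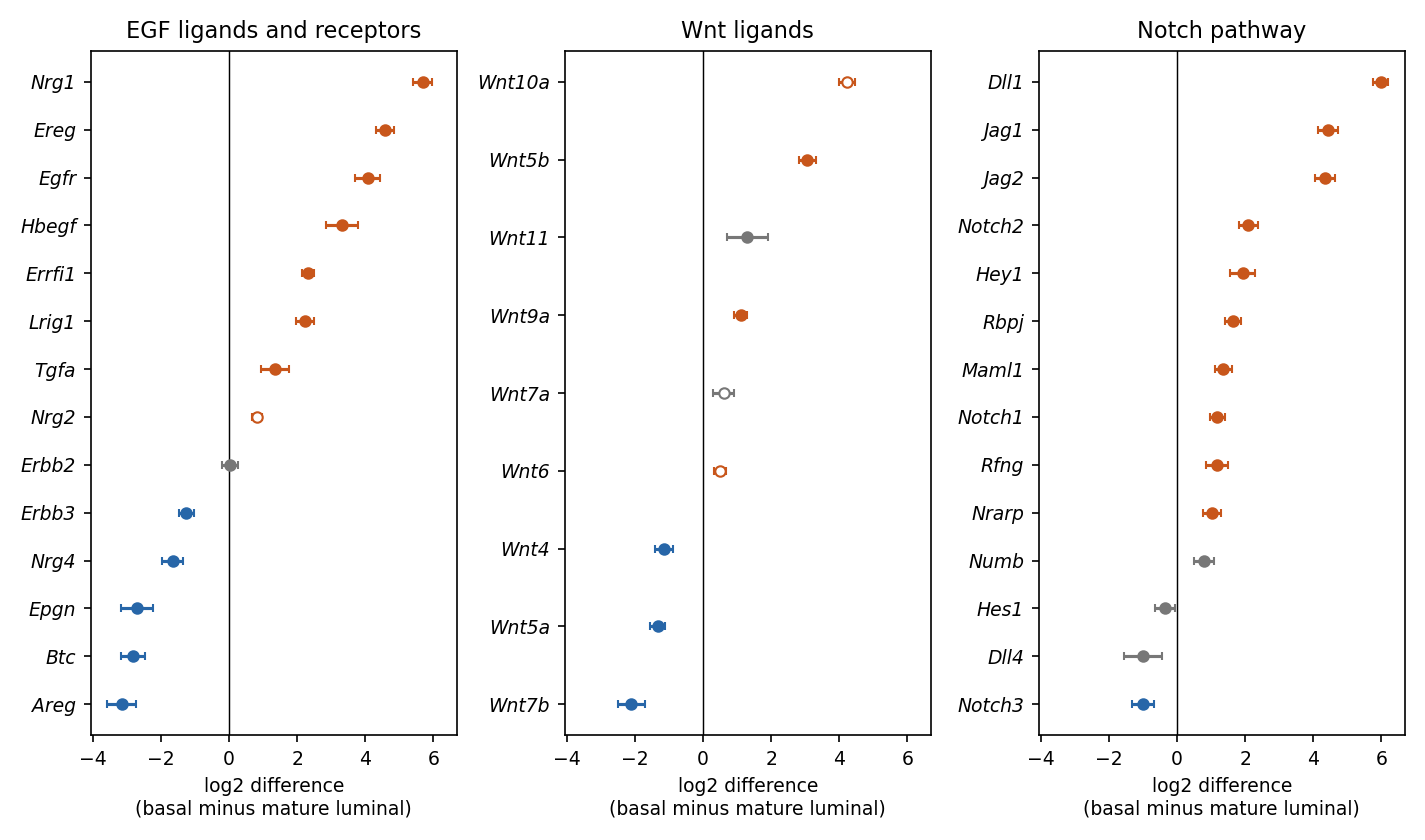
Log2 difference of log2(RPKM + 1), basal minus mature luminal, with its standard error, for the tested EGF family genes, Wnt ligands and Notch genes; orange passed the threshold and was higher in basal cells, blue passed and was lower, grey did not pass, and open symbols are listed at 0 in both mature luminal libraries. EGF and Wnt ligands lie on both sides of 0, while all the Notch ligands that passed (Dll1, Jag1, Jag2) lie to the right.

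Wnt ligands were likewise found on both sides, with 4 of 9 tested members higher and 3 lower (median 0.61), against 28.8% and 19.8% of all genes. Wnt5a was at 23.8 and 16.5 RPKM in basal cells, against 47.2 and 55.8 RPKM in mature luminal cells (-1.33 ± 0.23, adjusted p = 0.00306). Wnt7b was at 10.9 and 4.0 RPKM in basal cells, against 35.4 and 29.5 RPKM in mature luminal cells (-2.11 ± 0.39, adjusted p = 0.00436). Both were lower in each basal library. Wnt10a was at 20.6 and 15.3 RPKM in basal cells and is listed at 0 in both mature luminal libraries (adjusted p = 4.52e-05). Wnt5b was at 23.2 and 25.4 RPKM in basal cells, against 1.49 and 2.65 RPKM in mature luminal cells (3.07 ± 0.26, adjusted p = 0.000193).

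Wnt receptors, antagonists and targets, taken as 1 list, were higher in basal cells in 20 of 21 tested members, with none lower (median 2.91). The all-gene shares were 28.8% and 19.8%. Lgr5, a receptor for R-spondins and a stem cell marker in other epithelia, was at 95.1 and 145 RPKM in basal cells, against 0 and 0.526 RPKM in mature luminal cells (6.58 ± 0.29, adjusted p = 2.68e-05). Its relative Lgr4 was at 204 and 145 RPKM in basal cells, against 7.21 and 7.52 RPKM in mature luminal cells (4.37 ± 0.33, adjusted p = 0.00012). Both receptor genes were higher in each basal library, and Lgr5 was below 1 RPKM in each mature luminal library. The Frizzled genes Fzd1 (4.41), Fzd7 (3.09), Fzd5 (3.01), Fzd3 (2.10), Fzd8 (1.23) and Fzd4 (0.49) rose, with the coreceptor Lrp6 (2.91). Secreted antagonists rose in the same cells, among them Dkk3 (4.30), Sfrp2 (4.22), Sfrp1 (3.86) and Wif1 (2.67). Axin2, a feedback target of the pathway, was at 8.18 and 4.68 RPKM in basal cells and is listed at 0 in both mature luminal libraries (adjusted p = 0.000176). Procr, a marker of a basal stem cell population, was at 15.4 and 21.1 RPKM in basal cells, against 0.274 and 1.4 RPKM in mature luminal cells (3.45 ± 0.33). Fzd6 was the member that did not pass.

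Of the Notch ligands tested, 3 were far higher in basal cells. Jag1 was at 219 and 299 RPKM in basal cells, against 10.5 and 11.4 RPKM in mature luminal cells (4.43 ± 0.30, adjusted p = 7.9e-05). Dll1 was at 72.3 and 78.4 RPKM in basal cells, against 0.191 and 0.223 RPKM in mature luminal cells (5.98 ± 0.22, adjusted p = 1.89e-05). Jag2 was at 26.8 and 15.6 RPKM in basal cells, against 0 and 0.132 RPKM in mature luminal cells (4.34 ± 0.30). None of the 3 ligands overlapped between the groups. The receptors Notch1 (1.19) and Notch2 (2.10) and the effector Rbpj (1.64) rose by less. Notch3, a receptor linked to luminal cells, fell, at 3.68 and 1.67 RPKM in basal cells against 5.22 and 7.0 RPKM in mature luminal cells (-0.999 ± 0.32, adjusted p = 0.0343). That call was lost without basal replicate 2 (-0.59, adjusted p = 0.0919), mature luminal replicate 1 (-1.18, adjusted p = 0.0765) or replicate 2 (-0.82, adjusted p = 0.165). The target gene Hes1 did not pass, at 38.8 and 19.9 RPKM in basal cells against 37.2 and 34.2 RPKM in mature luminal cells. In all, 10 of 14 tested members rose and 1 fell (median 1.27), against 28.8% and 19.8% of all genes.

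FGF receptors and feedback genes rose in 10 of 13 tested members, and none fell (median 2.09), against 28.8% and 19.8% of all genes. Fgfr1 was at 159 and 216 RPKM in basal cells, against 28.7 and 39.3 RPKM in mature luminal cells (2.43 ± 0.23, adjusted p = 0.000305). Spry2, a feedback inhibitor of receptor kinases, was at 102 and 56.5 RPKM in basal cells, against 5.48 and 6.72 RPKM in mature luminal cells (3.45 ± 0.40, adjusted p = 0.000632). Both were above the mature luminal range in each basal library. Fgfr3 (2.48), Spry1 (2.33), Etv5 (2.17) and Dusp6 (1.91) also rose. Fgfr2 did not pass, and its mature luminal values lay far apart, with 95.9 and 116 RPKM in basal cells, against 12.9 and 93.2 RPKM in mature luminal cells.

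Of the TGF-beta, BMP and ID genes, 14 of 21 tested rose and 1 fell (median 2.20), against 28.8% and 19.8% of all genes. Fst, follistatin, a secreted inhibitor of activin, was at 493 and 333 RPKM in basal cells, against 0.566 and 1.22 RPKM in mature luminal cells (7.77 ± 0.26, adjusted p = 1.89e-05). Inhbb, which encodes an activin subunit, went the other way, at 59.3 and 63.2 RPKM in basal cells against 215 and 337 RPKM in mature luminal cells (-2.12 ± 0.23, adjusted p = 0.00053). The inhibitor was thus near 0 where the subunit was highest. The receptor genes Tgfbr3 (5.07) and Tgfbr1 (3.09) and the ligands Tgfb2 (4.31) and Bmp7 (3.52) rose. Ltbp2, a latent TGF-beta binding protein, rose by 5.601, and Ltbp4 was at 66.2 and 77.7 RPKM in basal cells and is listed at 0 in both mature luminal libraries (adjusted p = 1.89e-05). Without basal replicate 1 the members called lower became 3, and without basal replicate 2 they became 2.

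Genes of the IGF axis rose in 8 of 13 tested members and fell in 1 (median 1.77), against 28.8% and 19.8% of all genes. Igf1r was at 32.6 and 42.9 RPKM in basal cells, against 0.635 and 0.769 RPKM in mature luminal cells (4.50 ± 0.24, adjusted p = 4.74e-05). Igfbp3, a binding protein that sequesters IGFs, was at 371 and 497 RPKM in basal cells, against 0.411 and 1.11 RPKM in mature luminal cells (7.96 ± 0.27, adjusted p = 1.89e-05). The ligand genes Igf1 and Igf2 were below 0.12 RPKM in all 4 libraries. Igfbp5 (5.20), Igfbp7 (4.60) and Irs2 (4.27), a docking protein of the receptor, rose too, whereas Insr and Igf2r did not pass. The single fall, Igf2bp2 (-0.9992, adjusted p = 0.0292), was lost without basal replicate 1 (-0.81, adjusted p = 0.0761) or mature luminal replicate 2 (-0.66, adjusted p = 0.167).

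In the YAP and TEAD list, 12 of 15 tested members rose and 1 fell (median 1.41), against 28.8% and 19.8% of all genes. Ctgf, a matricellular target of YAP, was at 1034 and 411 RPKM in basal cells, against 1.56 and 3.5 RPKM in mature luminal cells (7.59 ± 0.50, adjusted p = 7.41e-05). Wwtr1, which encodes TAZ, was at 132 and 169 RPKM in basal cells, against 14.6 and 21.2 RPKM in mature luminal cells (3.01 ± 0.24, adjusted p = 0.000154). Yap1 rose by less, at 64.8 and 74.8 RPKM in basal cells against 24.8 and 32.8 RPKM in mature luminal cells (1.26 ± 0.21, adjusted p = 0.00261). Amotl1 (3.86) and the kinase genes Lats1 (1.41) and Lats2 (1.77), which restrain YAP, rose with them. Tead2 fell by 1.25, a call lost without mature luminal replicate 1 (-1.33, adjusted p = 0.0551) or replicate 2 (-1.16, adjusted p = 0.0707).

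Axon guidance genes, which also position cells in the mammary duct, rose in 16 of 25 tested members and fell in 1 (median 1.52). The all-gene shares were 28.8% and 19.8%. When the fit held only the 4 libraries compared, 9 members were called higher and none lower. Slit2, a ligand of Robo receptors, was at 5.72 and 6.13 RPKM in basal cells, against 0 and 0.026 RPKM in mature luminal cells (2.77 ± 0.18, adjusted p = 7.42e-05). Of the normal libraries, only the basal ones held Slit2 at 1 RPKM or more, the level asked for testing. The semaphorin genes Sema3c (3.54) and Sema5a (3.37) and the ephrin gene Efnb2 (3.43) rose. The plexin gene Plxnb2 fell by 0.71, a call lost without mature luminal replicate 1 (-0.66, adjusted p = 0.115) or replicate 2 (-0.76, adjusted p = 0.0723). Of the genes listed for mesenchymal transition, 5 of 10 tested rose and none fell (median 1.27), against 28.8% and 19.8% of all genes. Vim, vimentin, was at 349.7 and 307 RPKM in basal cells, against 2.77 and 7.32 RPKM in mature luminal cells (5.87 ± 0.40, adjusted p = 8.39e-05). Prrx1 (3.94), Snai2 and Cdh11 (1.35) rose, and Cdh2, N-cadherin, was at 1.5 and 2.79 RPKM in basal cells and is listed at 0 in both mature luminal libraries. Zeb1 and Snai1 did not pass, and Twist1, Twist2 and Zeb2 were too low to be tested.

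Chemokines and interleukins were again divided, with 10 of 19 tested members higher and 5 lower (median 1.07), against 28.8% and 19.8% of all genes. Cxcl14 was at 208 and 79.5 RPKM in basal cells, against 0 and 0.208 RPKM in mature luminal cells (6.88 ± 0.44, adjusted p = 7.03e-05). Csf1, the growth factor of macrophages, was at 51.8 and 43.1 RPKM in basal cells, against 1.08 and 1.21 RPKM in mature luminal cells (4.49 ± 0.23, adjusted p = 4.26e-05). The neutrophil chemokine gene Cxcl1 was the most abundant, at 2571 and 2168 RPKM in basal cells against 245 and 309 RPKM in mature luminal cells (3.10 ± 0.26, adjusted p = 0.000173). All 3 were higher in each basal library. Ccl2 (4.28), Cxcl2 (3.24) and Il6 (3.22) rose as well. The alarmin gene Il33 was at 5.23 and 3.26 RPKM in basal cells, against 37.9 and 27.1 RPKM in mature luminal cells (-2.68 ± 0.36, adjusted p = 0.00117). Cxcl15 (-2.95), Cxcl17 (-2.47), Il1rn (-2.48) and Il18 (-0.78) fell too, and without mature luminal replicate 1 or replicate 2 the members called lower became 3.

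Of the secreted defence proteins, 4 of 13 tested members were higher and 2 lower (median 0.13), shares near those of all genes (28.8% and 19.8%). Slpi, a protease inhibitor of mucosal secretions, was at 396 and 392 RPKM in basal cells, against 2.35 and 4.45 RPKM in mature luminal cells (6.53 ± 0.34, adjusted p = 4.33e-05). Wfdc2, a protein of the same domain family, was at 582 and 264 RPKM in basal cells, against 4972 and 5553 RPKM in mature luminal cells (-3.74 ± 0.35, adjusted p = 0.000259). Slpi was abundant in basal cells alone, while Wfdc2 was abundant in both layers and higher in mature luminal cells. The complement gene C3 (4.66), the ceruloplasmin gene Cp (3.85) and the iron-binding lipocalin gene Lcn2 (2.27) rose, and the antimicrobial lectin gene Reg3g fell, at 0 and 0.487 RPKM in basal cells against 11.8 and 20.5 RPKM in mature luminal cells. Both fibrinogen chain genes tested fell. Fgb was at 104 and 80.6 RPKM in basal cells, against 912 and 1169 RPKM in mature luminal cells (-3.48 ± 0.25, adjusted p = 9.56e-05). Fgg was at 208 and 123 RPKM in basal cells, against 1291 and 1346 RPKM in mature luminal cells (-3.04 ± 0.25, adjusted p = 0.000176). The remaining chain, Fga, was listed at 0 in both basal libraries and mature luminal replicate 1, and at 0.105 RPKM in mature luminal replicate 2.

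Genes of antigen presentation by MHC class I were mostly lower in basal cells. Of 17 tested members of the MHC list, 11 fell and none rose (median -1.23), against 19.8% and 28.8% of all genes. When the fit held only the 4 libraries compared, 3 members were called lower and none higher. B2m, the class I light chain, was at 681 and 409.5 RPKM in basal cells, against 1493 and 1493 RPKM in mature luminal cells (-1.50 ± 0.29, adjusted p = 0.00511). The immunoproteasome gene Psmb10 was at 16.2 and 6.13 RPKM in basal cells, against 47.8 and 39.5 RPKM in mature luminal cells (-2.01 ± 0.39, adjusted p = 0.0052). The Psmb10 call was lost in the fit of 4 libraries (limma adjusted p = 0.0573). Tap1 (-1.23), Tap2 (-1.56) and Tapbp (-0.86), which load peptides, fell with them, as did H2-K1 (-0.9965) and H2-D1 (-1.56), whose reads may be shared among class I genes. Psmb8 (-2.29) and Psmb9 (-1.98) lost their calls without mature luminal replicate 1 (adjusted p = 0.0752 and 0.113), and Psmb9 also without replicate 2 (adjusted p = 0.0601). Without mature luminal replicate 1 only 5 members of the list were called lower. The class II genes did not pass, and their high values lay in basal replicate 1: Cd74 stood at 63.4 and 18.4 RPKM in basal cells, against 11.3 and 12.5 RPKM in mature luminal cells. Without basal replicate 2 the members called higher became 4. Basal replicate 1 was also where the myeloid gene Lyz2 stood at 57.0 RPKM, against 0.702 RPKM in basal replicate 2 and 0 and 1.15 RPKM in mature luminal cells. The 14 immune markers summed to 84.4 and 21.9 RPKM in basal cells, against 17.2 and 19.98 RPKM in mature luminal cells, and 2 of the 14 reached 1 RPKM in both libraries of either group. Cd3e and Adgre1 were at 0 in all 4 libraries, Ptprc was at 0.226 and 0.364 RPKM in basal cells against 0 and 0.0903 RPKM in mature luminal cells, and the part of immune cells in these values was not tested.

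Interferon-induced genes fell in 7 of 19 tested members and rose in 2 (median -0.42), against 19.8% and 28.8% of all genes. When the fit held only the 4 libraries compared, 1 member was called lower and 1 higher. Oas1a, an antiviral enzyme, was at 0.263 and 0.0978 RPKM in basal cells, against 3.77 and 3.48 RPKM in mature luminal cells (-1.97 ± 0.19, adjusted p = 0.000309). Gbp2, a guanylate-binding protein, was at 10.2 and 4.61 RPKM in basal cells, against 24.9 and 25.8 RPKM in mature luminal cells (-1.73 ± 0.34, adjusted p = 0.00523). The Gbp2 call was lost in the fit of 4 libraries (limma adjusted p = 0.0534). Stat2, Irf1 and Irf9, which carry the interferon signal, did not pass. Usp18 (-2.72) lost its call without mature luminal replicate 1 (-2.51, adjusted p = 0.0665), as did the rises of Ifit2 (1.34; 1.15 without it, adjusted p = 0.0513) and Ifi27l2a (1.42; 1.19 without it, adjusted p = 0.0721). Bst2 (-1.63) lost it without basal replicate 2 (-0.85, adjusted p = 0.0971), mature luminal replicate 1 (-1.27, adjusted p = 0.181) or replicate 2 (-1.995, adjusted p = 0.0558). Without mature luminal replicate 1 the members of the list called lower became 3 and those called higher became 0.

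Of the genes of luminal progenitors and milk secretion, 4 of 14 tested members were higher and 4 lower (median -0.13), shares near those of all genes (28.8% and 19.8%). Aldh1a3, a retinaldehyde dehydrogenase of progenitors, was at 3.37 and 6.61 RPKM in basal cells, against 17.6 and 19.3 RPKM in mature luminal cells (-1.75 ± 0.28, adjusted p = 0.00227). Cd14 (-1.39), Csn3 (-0.96) and Ltf (-0.89), which encodes lactoferrin, also fell. Trf, transferrin, was at 35.1 and 41.9 RPKM in basal cells, against 0.889 and 1.72 RPKM in mature luminal cells (4.12 ± 0.25, adjusted p = 5.53e-05). Sox10, a factor of fetal stem cells and neural crest, was at 4.41 and 8.31 RPKM in basal cells, against 0.0801 and 0.324 RPKM in mature luminal cells (2.57 ± 0.42, adjusted p = 0.00248). Hey1 (1.93) and Mfge8 (1.27) rose too. The whey protein gene Wap was at 0 in all 4 libraries, and without mature luminal replicate 2 the members called lower became 2.

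Immediate early genes, which respond quickly to growth factors, rose in 9 of 19 tested members and fell in 1 (median 1.11). The all-gene shares were 28.8% and 19.8%. Egr1 was at 714 and 248 RPKM in basal cells, against 35.1 and 45.6 RPKM in mature luminal cells (3.36 ± 0.52, adjusted p = 0.00208). Dusp1, a phosphatase that ends kinase signals, was at 944 and 448 RPKM in basal cells, against 51.8 and 41.6 RPKM in mature luminal cells (3.78 ± 0.40, adjusted p = 0.000453). Fos was at 559.5 and 256 RPKM in basal cells, against 337 and 278 RPKM in mature luminal cells, and did not pass. Fos overlapped between the groups while Egr1 and Dusp1 did not, and basal replicate 1 was the higher basal library for all 3. Egr3 (4.76) and Myc (3.04) rose, and Jun, Junb, Fosb and Atf3 did not pass. Jund fell by 1.22, a call lost without mature luminal replicate 1 (-1.34, adjusted p = 0.0663) or replicate 2 (-1.10, adjusted p = 0.1).

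Over all genes, the 10 largest rises were Krt17, Postn, Pdpn, Igfbp3, Fst, Krt14, Ctgf, Moxd1, 1500015O10Rik and Cxcl14. Pdpn, podoplanin, a surface glycoprotein of basal and lymphatic cells, was at 401 and 423 RPKM in basal cells, against 0.231 and 1.03 RPKM in mature luminal cells (8.03 ± 0.25, adjusted p = 1.89e-05). Moxd1, a monooxygenase related to dopamine beta-hydroxylase, was at 158 and 281 RPKM in basal cells, against 0.313 and 0.183 RPKM in mature luminal cells (7.41 ± 0.31). 1500015O10Rik, the gene of the secreted peptide augurin, was at 196 and 129 RPKM in basal cells, against 0.24 and 0.225 RPKM in mature luminal cells (7.02 ± 0.27). No mature luminal library held any of these 3 above 1.03 RPKM. The 10 largest falls included Krt7, Cited1, Wfdc2 and Reg3g. The others were the kallikrein gene Klk6 (-3.90), Gm32014 (-3.75), the secreted peroxidase gene Gpx3 and 3 genes whose reads cannot be assigned with certainty. Gpx3 was at 134 and 13.1 RPKM in basal cells, against 1016 and 389 RPKM in mature luminal cells (-3.85 ± 0.95, adjusted p = 0.0134). It lost its call without mature luminal replicate 1 (-3.16, adjusted p = 0.0946), and its difference was -2.22 without basal replicate 2. Of the uncertain genes, Rpl37rt was at 0.18 and 1.05 RPKM in basal cells, against 256 and 324 RPKM in mature luminal cells, while its near-identical copy Rpl37 was at 428 and 461 RPKM in basal cells against 350.2 and 435 RPKM in mature luminal cells. H2-T9 is listed at 0 in both basal libraries, against 71.2 and 57.2 RPKM in mature luminal cells, and H2-Q6 at 0 in both basal libraries, against 19.3 and 11.4 RPKM in mature luminal cells. Both belong to families of near-identical class I genes.

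The basal and luminal SOX10 high cells of PY230 tumours share no library with the normal cells. Their table was scaled separately, so differences were set side by side and not modelled together. Among 13136 genes tested there, 1814 were higher in PY230 basal cells (13.8%) and 3699 lower (28.2%), 42% in either direction. All 7 basal genes of the lineage set tested in PY230 cells were higher there, and all 10 luminal ones lower. Myh11, the smooth muscle myosin heavy chain, was at 131 and 78.3 RPKM in PY230 basal cells, against 2.62 and 2.55 RPKM in PY230 luminal cells (4.83 ± 0.24, adjusted p = 7.94e-05). In normal cells it was at 70.6 and 41.5 RPKM in basal cells, against 0.129 and 0.159 RPKM in mature luminal cells (5.59 ± 0.28, adjusted p = 3.98e-05). In both settings each basal library was above both luminal ones. Krt14 differed by 4.004 ± 0.31 in PY230 cells and by 7.75 ± 0.45 in normal cells, with 217 and 137 RPKM in PY230 basal cells against 8.39 and 11.5 RPKM in PY230 luminal cells. Lgr5 was too low in PY230 cells to be tested.

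**Figure D5:**
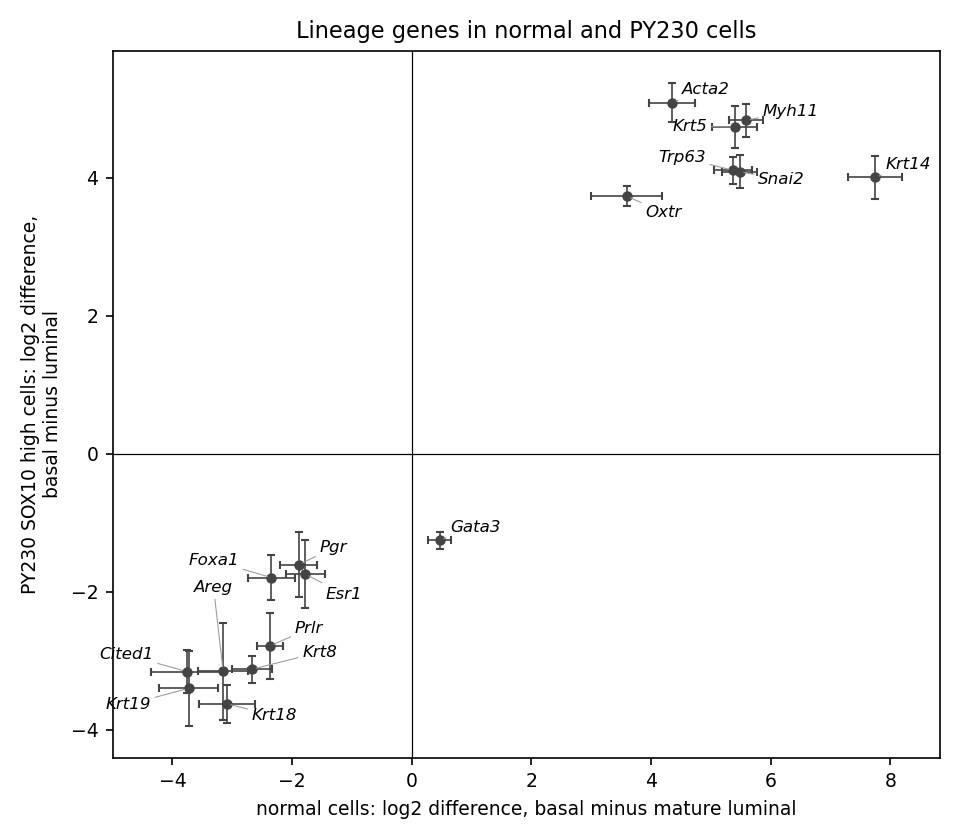
Log2 differences with standard errors for 17 lineage genes, normal basal minus mature luminal cells on the horizontal axis and PY230 basal minus luminal SOX10 high cells on the vertical axis. The 7 basal genes lie at the upper right and 9 luminal genes at the lower left, while Gata3 lies at 0.47 on the horizontal axis and -1.25 on the vertical axis.

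Across the 11315 genes tested in both tables the differences had a Pearson correlation of 0.548, a description over genes that are not independent. Of 3242 such genes higher in normal basal cells, 913 (28.2%) were also higher in PY230 basal cells and 340 were lower. These 913 were 63% of the genes higher in PY230 basal cells. Of 2307 genes lower in normal basal cells, 1278 (55.4%) were also lower in PY230 basal cells and 43 were higher. These 1278 were 38.9% of the genes lower in PY230 basal cells. Of all 11315 genes, 1450 were higher in PY230 basal cells and 3287 lower. The shares of 28.2% and 55.4% therefore stand against different baselines. The contractile list was higher in both settings, with 18 of 18 tested members called in PY230 cells (median 3.15), and the tight junction list fell in 23 of 24 (median -2.66). Wnt receptors, antagonists and targets, 20 of 21 higher in normal basal cells, were higher in 10 of 19 in PY230 basal cells and lower in 1 (median 0.62). The Notch list, 10 of 14 higher in normal basal cells, had 4 higher and 4 lower of 14 in PY230 basal cells (median 0.04). The shares of all genes differed as well. They were 28.8% higher and 19.8% lower in normal basal cells, against 13.8% and 28.2% in PY230 basal cells. The share of Notch genes lower in PY230 basal cells was near that of all genes. Whether a list differs between the settings was not tested.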

How the data were processed

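RNA was measured in 4 libraries, each from about 2000 sorted cells. SmartSeq2 cDNA was amplified with 18 PCR cycles, per the labels' protocols, tagmented with Nextera XT, amplified with 10 more cycles and read from a single end at 50 or 75 bp. These kits mark no strand and carry no molecular identifiers, so antisense partners are not separated and PCR copies are counted. The deposited values are RPKM, made by the authors with HISAT2 2.0.5 and StringTie 1.3.1c on mm9, per the submitters' processing notes; the annotation is not given in the sources used here. RPKM was transformed to log2(RPKM + 1) and fitted with limma 3.58.1 (R 4.3.3, intensity trend, no replicate term). The fit held all 8 normal libraries, or all 6 PY230 libraries, and kept genes that reached 1 RPKM in 2 or more libraries. Among genes that rose, Myh11, Ereg, Slit2, Cdh2, Bcl11b and Plin4 were some that reached it in the basal libraries alone. Such genes entered the test through the values compared, so their calls are not independent of the filter. Genes were called at p under 0.05, two-sided, after Benjamini-Hochberg adjustment. The fit was also run on simulated data in which all groups of a gene had the same spread. That setting cannot test the unequal spread of the basal and mature luminal libraries. Read counts were not used here, and intervals for counting error cannot be had from RPKM; depth is unknown.

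The members and gene lists were chosen with earlier results of these data known. Genes named by rule were the lineage set, up to 4 members of each list with the largest differences that passed without overlap, up to 2 of the opposite direction, the 10 largest rises and 10 largest falls, members of lists of 3 or fewer, and the 2 highest markers of each other cell type; other members were named after their values were seen. Alternatives were the pseudocount, the filter, 3 scalings, no trend, fewer libraries in the fit, a replicate block and leaving out each library. The C3-1-TAg libraries were not analysed here, and some list members are not reported here.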

Additional observations from a re-analysis of the deposited data

Results flagged for a closer look

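Gata3 was the only lineage gene whose libraries separated in opposite directions in the normal and PY230 cells. It was at 32.1 and 37.6 RPKM in normal basal cells, against 26.0 and 23.7 RPKM in mature luminal cells (log2 difference 0.47, limma adjusted p = 0.0749). In PY230 tumours it was at 21.5 and 22.97 RPKM in basal SOX10 high cells, against 52.3 and 56.4 RPKM in luminal SOX10 high cells (log2 difference -1.25, limma adjusted p = 0.000478). Gata3 thus did not pass the threshold in normal cells. Separation of the libraries was common there. Both basal libraries lay above both mature luminal ones for 40% of tested genes and below them for 31.2%. The difference of Gata3 between the settings was not tested, because the tables were scaled separately.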

How the results depend on the processing

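No gene called higher or lower in basal cells was called in the opposite direction under any alternative run. The counts of 3611 genes higher and 2488 lower became 2245 and 1039 when the fit held only the 4 libraries compared, and 3258 of the 6099 calls remained there. Leaving out 1 library at a time gave 2456 to 4165 genes higher and 1194 to 3216 lower. The median log2 difference of all genes, 0.12, became 0.00721 with no filter on low values, 0.157 where 5 RPKM was asked of 2 libraries, 0.283 after rescaling to the same sum, -0.074 with quantile-normalized values and -0.00934 with median-of-ratios factors. In PY230 cells, the genes lower became 2340 with median-of-ratios factors and 2094 to 3879 on leaving out 1 library. Of 170 named genes called, 29 lost the call without at least 1 library and 36 in the fit of 4 libraries. Genes that did not pass and changed sign were Cd68 (-0.20 after quantile normalization, -0.13 with median-of-ratios factors), Emcn (-1.35 to 2.81 on leaving out 1 library, -0.38 without mature luminal replicate 1) and Krt10 (-0.34 without basal replicate 2, 1.01 without basal replicate 1). The cause of these shifts was not tested. The sample titles share replicate numbers, but no label says that they mark an animal or day; the deviations of same-numbered basal and mature luminal libraries correlated at 0.221. With the replicate number as a block, 3651 genes were higher and 2570 lower, 5935 of the 6099 calls remained, and PY230 cells had 1724 higher and 3368 lower. Depth is unknown, so differences of genes near 0 RPKM are limited by an error that cannot be stated.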

Other observations

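Cholesterol and fatty acid synthesis genes fell in 6 of 21 tested members and rose in 2, with a median log2 difference of -0.20. Of all genes, 19.8% fell and 28.8% rose. Fdft1, squalene synthase, was at 60.03 and 28.5 RPKM in basal cells, against 207 and 117 RPKM in mature luminal cells (-1.89 ± 0.39, limma adjusted p = 0.00653). Fdps, the enzyme a step before it, was at 13.0 and 5.64 RPKM in basal cells, against 45.2 and 26.9 RPKM in mature luminal cells (-1.90 ± 0.38, limma adjusted p = 0.00611). Both were below the mature luminal range in each basal library. Both calls were lost in the fit of only the 4 libraries compared (limma adjusted p = 0.0643 and 0.0645). In that fit no member of the list was called lower and 1 was called higher. Fasn, fatty acid synthase, rose instead, at 48.7 and 88.3 RPKM in basal cells against 21.9 and 16.6 RPKM in mature luminal cells (1.73 ± 0.31, limma adjusted p = 0.00368). Without basal replicate 1 the members called higher became 5, and without mature luminal replicate 1 they became 1. The 8 fat cell markers summed to 67.5 and 235 RPKM in basal cells, against 6.67 and 49.4 RPKM in mature luminal cells, nearly all of it Fabp4, and 2 of the 8 reached 1 RPKM in both basal libraries against 1 in both mature luminal libraries. Fabp4, a fatty acid carrier, was at 65.6 and 233 RPKM in basal cells, against 6.14 and 48.4 RPKM in mature luminal cells (2.73 ± 0.91, limma adjusted p = 0.041), a call lost without basal replicate 2 (1.83, adjusted p = 0.174) or mature luminal replicate 1 (1.34, adjusted p = 0.212). The fat droplet gene Plin4 rose too, at 1.01 and 1.63 RPKM in basal cells against 0.0967 and 0 RPKM in mature luminal cells (1.14 ± 0.18, limma adjusted p = 0.00226), and Plin1 was at 0 in all 4 libraries. Plin4 reached 1 RPKM, the level asked for testing, in no normal library outside the basal ones. The part of fat cells in these values was not tested. Hmgcs1 was listed at 44.3 and 0 RPKM in basal cells, against 54.7 and 38.2 RPKM in mature luminal cells.

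Cell cycle genes rose in 7 of 22 tested members and fell in 1. The share that rose is near the 28.8% of all genes. Mki67, a marker of cycling cells, was at 2.71 and 2.99 RPKM in basal cells, against 0.314 and 0.446 RPKM in mature luminal cells (1.48 ± 0.21, limma adjusted p = 0.00146). Aurka, a mitotic kinase, fell, at 1.68 and 1.08 RPKM in basal cells against 7.44 and 5.08 RPKM in mature luminal cells (-1.60 ± 0.25, limma adjusted p = 0.00222). Without mature luminal replicate 1 or replicate 2 the members called higher became 2, and after quantile normalization they became 3, and without basal replicate 2 the members called lower became 2. Ccnd2, cyclin D2, was at 22.1 and 31.8 RPKM in basal cells, against 0.208 and 0.295 RPKM in mature luminal cells (4.46 ± 0.25, limma adjusted p = 4.84e-05). The cell cycle inhibitor gene Cdkn1c rose by 1.86 (limma adjusted p = 0.00099).

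Of the retinoid genes, 3 of 12 tested members were higher and 2 lower, shares near those of all genes (28.8% and 19.8%). The retinoic acid carrier gene Crabp2 was at 33.8 and 17.7 RPKM in basal cells, against 3.3 and 2.46 RPKM in mature luminal cells, and rose by 2.73. Aldh1a1 was at 2.95 and 2.55 RPKM in basal cells and is listed at 0 in both mature luminal libraries, while Aldh1a3 fell. Without basal replicate 1, 5 members were called higher and 4 lower.

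Of the glycolysis genes, 4 of 15 tested members were higher and 2 lower, shares near or under those of all genes (28.8% and 19.8%). The glucose transporter gene Slc2a1 was at 123 and 94.4 RPKM in basal cells, against 23.6 and 24.1 RPKM in mature luminal cells (2.13 ± 0.24, limma adjusted p = 0.000616). The falls were Hk2, a hexokinase, at 55.5 and 49.0 RPKM in basal cells against 115 and 109 RPKM in mature luminal cells (-1.09 ± 0.31, limma adjusted p = 0.0238), and Aldoa, an aldolase, at 273 and 166 RPKM in basal cells against 539 and 381 RPKM in mature luminal cells (-1.09 ± 0.28, limma adjusted p = 0.0157). Hk2 lost its call without basal replicate 2 (adjusted p = 0.0677), mature luminal replicate 1 (adjusted p = 0.108) or replicate 2 (adjusted p = 0.0832), and Aldoa without mature luminal replicate 1 (adjusted p = 0.103). The members called lower became 6 with quantile-normalized values and 6 with median-of-ratios factors. They became 5 without basal replicate 1, 1 without basal replicate 2 and 0 without mature luminal replicate 1, and those called higher became 6 without basal replicate 2.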
